A study of Danio rerio with 6 samples.

Results

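The genes described here encode redox and glutathione enzymes, some of their regulators, and related or similarly named proteins. They were read in GFP+ cells that were sorted from zebrafish tails as endothelial cells (ECs). Markers of other cell types were also read in the sorted cells, so the levels are not those of ECs alone. Every gene of the expression table with a symbol of the following families was taken. These were peroxiredoxins, glutathione peroxidases, thioredoxins and their reductases, thioredoxin-domain and thioredoxin-interacting proteins, and glutaredoxins. Enzymes of glutathione synthesis and reduction, glutathione S-transferases, superoxide dismutases and catalase were also among them. The others were Nrf2 and Keap1 with nqo1 and the haem oxygenases, sestrins, methionine sulfoxide reductases, selenium-binding protein and metallothionein 2. This rule used no measured value and gave 66 of the 10232 genes of the table. The data are bulk RNA-seq of GFP+ cells sorted from dissected embryo tails, which contain the caudal haematopoietic tissue (CHT), at 36 h post-fertilisation (hpf). There were 3 libraries of flk1:GFP;flk1:GAL4;UAS:DN-bmal1a embryos (called DN-bmal1a) and 3 of flk1:GFP;UAS:DN-bmal1a embryos (called control). Both genotypes carried the flk1:GFP reporter and the UAS:DN-bmal1a transgene, and only DN-bmal1a embryos carried flk1:GAL4, which switches the transgene on in cells that use the flk1 (kdrl) promoter. DN-bmal1a encodes a Bmal1a clock protein without its transactivation domain, and the comparison asks what its expression does to the transcripts of the sorted cells. The driver itself is therefore a difference between the genotypes, and its part cannot be told apart from that of the transgene.

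Cells that respire make superoxide and hydrogen peroxide. Superoxide dismutases convert superoxide to hydrogen peroxide, which catalase, peroxiredoxins and glutathione peroxidases then break down. Peroxiredoxins are recharged by thioredoxin and thioredoxin reductase, glutathione peroxidases by glutathione and glutathione reductase, and both routes draw on NADPH. The transcription factor Nrf2 switches on many of these genes when oxidants or electrophiles release it from Keap1, the adaptor that otherwise marks it for degradation, and zebrafish carry a pair of paralogues of each (nfe2l2a and nfe2l2b, keap1a and keap1b).

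Levels are given as deposited, in CPM (reads of a gene scaled to 1e+06 reads of the effective library size). They compare a gene between libraries but not one gene with another, because they are not per transcript length. Each log2 fold change (log2FC) is DN-bmal1a minus control on the log2(CPM + 1) scale, from a limma fit across all 10232 genes, with its standard error (SE). The added 1 makes the log2FC of genes at a few CPM smaller than their ratio. Adjusted p-values are Benjamini-Hochberg values over all genes. The libraries held 26161915 to 55004237 reads, and DN-bmal1a replicate 2 was the smallest and had the most genes without a read (1760, against 34 to 865 in the other libraries). The study describes each genotype as triplicates of pooled embryos. The labels do not tie a library to a pool or an experiment, so the p-values measure the spread between these libraries, which may be technical.

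The sort was checked against marker genes. The endothelial markers kdrl and cdh5 were read in every library, and the 17 endothelial markers in the table summed to 5800-7942 CPM in DN-bmal1a libraries and 10210-12560 CPM in controls, with 0 of 17 having a log2FC above 0 (median -0.69) and none at 0 in any library. The 22 erythrocyte markers summed to 7867-9907 CPM in DN-bmal1a and 6135-7746 CPM in controls, with 16 of 22 above 0 and a median log2FC of 0.84 (gata1a, klf17, slc25a37 and nt5c2l1 were at 0 in at least 1 library). Of these sums, aqp1a.1 alone held 2454, 1521 and 1862 CPM in DN-bmal1a and 3261, 4344 and 3832 CPM in controls. Its log2FC of -0.99 ran opposite to the sums, which therefore differ less than most of the other markers. That log2FC was close to the one of the endothelial marker kdrl (-0.96), and which cells the aqp1a.1 reads came from was not tested. The globins hbae1, hbae3, hbbe1.1, hbbe2 and hbbe3 had 176% to 377% of their control means. Besides aqp1a.1, the erythrocyte markers gata1a, slc25a37, sptb, epb41b and klf17 had a log2FC below 0. Of these, gata1a had 0, 0 and 1.83 CPM in DN-bmal1a and 4.13, 5.84 and 8.89 CPM in controls (log2FC -2.31, SE 0.72). The 16 epidermal markers summed to 10760-15310 CPM in DN-bmal1a and 16130-17470 CPM in controls, with 2 of 16 above 0 and a median log2FC of -0.77 (cldne, cdh1, agr1 and ppl at 0 in at least 1 library). Most of these sums came from krt18, with 7972 to 11970 CPM in DN-bmal1a and 12220 to 13600 CPM in controls. krt8 came next, with 1806 to 2923 CPM in DN-bmal1a and 2580 to 3279 CPM in controls. Over the 6 libraries krt4 had a mean of 570 CPM, and epcam, krt5, tp63 and cdh1 had means of 25.3, 8.39, 7.70 and 4.63 CPM. Which cells the krt18 and krt8 reads came from was not tested. The 17 muscle markers summed to 1008-4694 CPM in DN-bmal1a and 1458-5376 CPM in controls, which overlap, with 3 of 17 above 0 and a median log2FC of -0.91. Sums of the 17 myeloid markers also overlapped (8609-12780 CPM in DN-bmal1a and 9015-14590 CPM in controls, 4 of 17 above 0, median -0.12), as did those of the 6 neural crest and pigment cell markers (2 of 6 above 0, median -0.23). In bulk RNA, fewer cells of a type and less RNA per cell cannot be told apart, and the part these differences have in the results below was not tested. The gene symbol arntl1a, which is bmal1a, had 42.9, 22.2 and 55.5 CPM in DN-bmal1a libraries and 20.6, 16.8 and 3.28 CPM in controls. The genotypes did not overlap for it (log2FC 1.71, SE 0.68, limma adjusted p = 0.402), and reads of the transgene cannot be told apart from those of the endogenous gene.

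None of the 66 redox and glutathione genes passed the limma test (adjusted p under 0.05 and at least a 2-fold change), against 0.00977% of all genes (1 gene, nr4a1), and the lowest adjusted p among the 66 was 0.253. At an unadjusted limma p under 0.05, 4 were higher in DN-bmal1a (6.06%, against 3.10% of all genes) and 0 were lower (against 8.12% of all genes). The 4 were nfe2l2b, msra, prdx6 and gsto2. By edgeR's quasi-likelihood test on the reads recovered from the CPM values, 0 passed, with 3 higher (4.55%, against 2.63% of all genes) and 0 lower (against 5.23% of all genes) at an unadjusted p under 0.05. DESeq2 on the same reads called 1 of the 65 it tested, msra (1.54%, against 1.87% of all genes), which is close to the share over all genes.

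The log2FC of 31 of the genes lay above 0 and of 35 below, with a median of -0.05 and a range from -1.36 to 2.83. Over all genes the median was -0.13, with 41.9% above 0. This all-gene median moved with the scaling: it was -0.08 with the libraries rescaled to the same sum and 0.04 with quantile normalization, and the median of the 66 was then 0.01 and 0.04. Relative to the all-gene median, the log2FC was -0.30 for nfe2l2a, 0.75 for prdx6, 0.91 for gsto2, 1.73 for msra and 2.96 for nfe2l2b, each on the same side as the value before this shift. In 3 of the 66 genes (4.55%, against 10.7% of all genes) all 3 DN-bmal1a libraries were below all 3 controls, and in 7 (10.6%, against 7.00% of all genes) all 3 DN-bmal1a libraries were above all 3 controls. For 8 genes (hmox2a, nqo1, gstcd, gstm.3, gpx3, gpx4b, msrb1b and txndc15) the sign of the log2FC depended on the scaling.

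**Figure D1:**
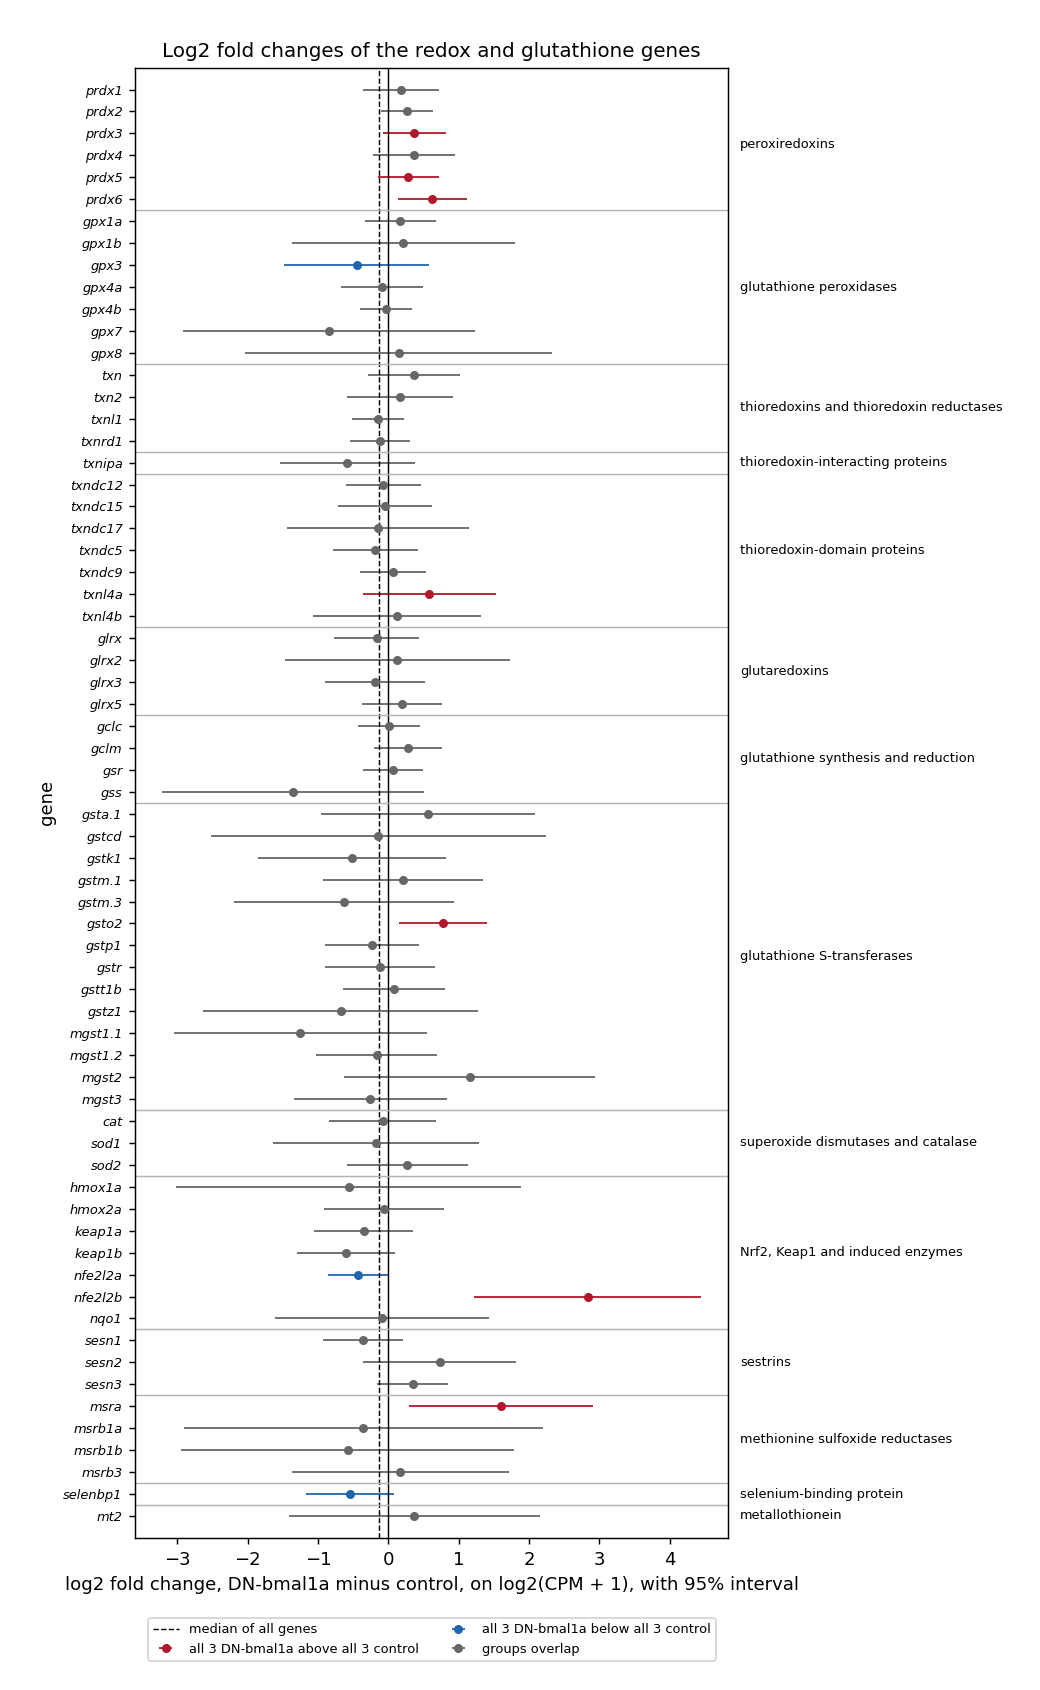
Log2 fold change of each of the 66 genes, DN-bmal1a minus control on log2(CPM + 1), with its 95% interval from limma (n = 3 libraries each), in role groups. Red marks the 7 genes with all DN-bmal1a libraries above all controls, blue the 3 with all below, and the dashed line is the median of all genes (-0.13); the intervals of nfe2l2b, msra, prdx6 and gsto2 lie above 0.

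The regulators lay on different sides of 0. The Nrf2 paralogue nfe2l2a had 261, 173 and 192 CPM in DN-bmal1a libraries, against 280, 276 and 271 CPM in controls. Its DN-bmal1a mean was 75.5% of the control mean (208 ± 46.4 CPM against 276 ± 4.26 CPM, SD, n = 3 each). All 3 DN-bmal1a libraries lay below all controls, which were close together, and DN-bmal1a replicate 1 came near to them. The log2FC was -0.43 (SE 0.20, limma adjusted p = 0.46), so the difference did not pass the test.

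The other paralogue, nfe2l2b, was nearly unread in controls. It had 15.1, 6.56 and 5.83 CPM in DN-bmal1a libraries and 0.0483, 1.21 and 0 CPM in controls, which is 653, 179 and 328 reads in DN-bmal1a against 2, 45 and 0 reads in controls. The 3 DN-bmal1a libraries were all higher than the controls, and 45 of the control reads came from replicate 2. Every gene of the table has reads in at least 3 libraries, which nfe2l2b met only with its DN-bmal1a reads. Its lack of overlap is therefore not independent of how the table was formed. With a log2FC of 2.83 (SE 0.72, 95% interval 1.22 to 4.44, limma adjusted p = 0.253) it had the highest log2FC of the 66 genes on this scale. The value depends on the pseudocount: it was 4.97 with 0.1 CPM added and 0.85 with 10 CPM added, when msra, at 0.87, was higher. In zebrafish, nfe2l2b has been described as a weaker activator than nfe2l2a and a repressor of some genes.

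Both Keap1 paralogues had lower means in DN-bmal1a, within the spread of the libraries. keap1a had 283, 150 and 274 CPM in DN-bmal1a and 234, 238 and 437 CPM in controls (log2FC -0.35, SE 0.31, adjusted p = 0.706). Its groups overlapped, with DN-bmal1a replicate 2 the lowest and control replicate 3 the highest. keap1b had 69.0, 41.2 and 40.5 CPM in DN-bmal1a and 88.4, 77.8 and 59.4 CPM in controls (log2FC -0.60, SE 0.31, 95% interval -1.29 to 0.10, adjusted p = 0.515). Here only DN-bmal1a replicate 1 reached into the control range. The transcripts of Nrf2 and of the adaptor that degrades it thus lay on the same side for nfe2l2a, keap1a and keap1b, and on the opposite side for nfe2l2b.

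**Figure D2:**
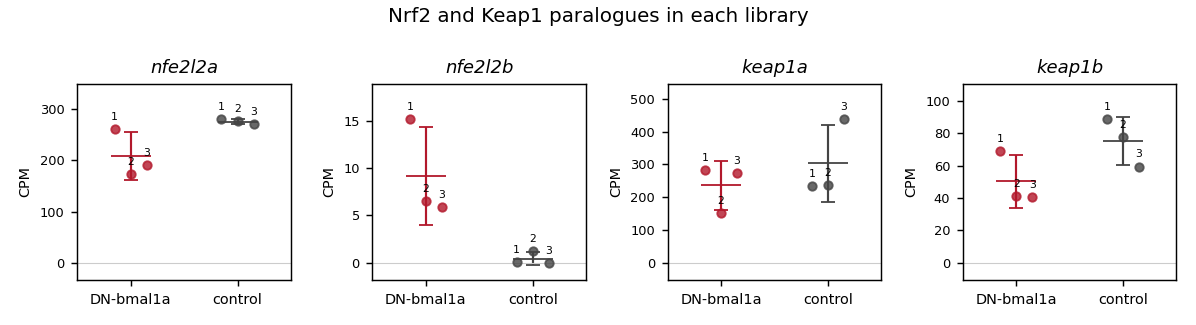
Levels of nfe2l2a, nfe2l2b, keap1a and keap1b in each library (CPM, y axis), DN-bmal1a to the left of control; numbers are replicates, horizontal lines are means and bars are SD (n = 3 each). The nfe2l2a and nfe2l2b groups do not overlap, with DN-bmal1a below control for nfe2l2a and above it for nfe2l2b, whereas those of keap1a and keap1b overlap.

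Among the 66 genes, nqo1 and the haem oxygenases hmox1a and hmox2a overlapped between the genotypes. The quinone reductase nqo1 had 8.13, 17.8 and 15.2 CPM in DN-bmal1a and 7.95, 9.82 and 33.8 CPM in controls (log2FC -0.09, SE 0.68, but 0.04 with quantile normalization). Haem oxygenase 1 (hmox1a), which degrades haem, had 23.1, 6.75 and 0.0355 CPM in DN-bmal1a and 8.33, 10.8 and 4.65 CPM in controls. The DN-bmal1a libraries of hmox1a stretched from 999 reads to 2 reads, beyond the control range at both ends, and its log2FC of -0.56 (SE 1.09) was 0.33 by edgeR. Of 10 genes known as Nrf2 targets in vertebrates (gclc, gclm, gsr, txnrd1, nqo1, hmox1a, prdx1, gstp1, sesn2 and txn), 6 had a log2FC above 0 and 4 below, with a median of 0.04, and none passed the test.

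The peroxiredoxins, the abundant thiol peroxidases of the cell, were the only role group of more than 1 gene with every member above 0: all 6 had a positive log2FC, from 0.17 to 0.62 with a median of 0.32, where 41.9% of all genes and 48.5% of those with a mean of at least 50 CPM, as all 6 have, were above 0. With quantile normalization 52.1% of all genes and again all 6 peroxiredoxins were above 0. None passed the test. prdx6, the 1-cysteine member that uses glutathione and also acts on phospholipids, had 146, 147 and 107 CPM in DN-bmal1a libraries, against 82.3, 87.3 and 86.9 CPM in controls. All DN-bmal1a libraries lay above all controls, with replicate 3 the closest to them. The DN-bmal1a mean was 156% of the control mean (133 ± 22.9 CPM against 85.5 ± 2.81 CPM, SD, n = 3 each). Its log2FC was 0.62 (SE 0.22, 95% interval 0.13 to 1.11, limma adjusted p = 0.36), and 0.55 to 0.77 with any 1 library left out.

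The mitochondrial peroxiredoxins prdx3 and prdx5 also had no overlap. For prdx3, the DN-bmal1a libraries had 186, 139 and 180 CPM and the controls 122, 129 and 137 CPM (log2FC 0.37, SE 0.20, adjusted p = 0.528). For prdx5, the DN-bmal1a libraries had 141, 185 and 152 CPM and the controls 131, 126 and 134 CPM (log2FC 0.28, SE 0.19, adjusted p = 0.62). In both genes the lowest DN-bmal1a library lay only a little above the highest control, and the controls were close together.

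prdx2, the cytosolic peroxiredoxin that is abundant in red blood cells, had 698, 840 and 762 CPM in DN-bmal1a and 746, 586 and 583 CPM in controls (log2FC 0.27, SE 0.17, adjusted p = 0.582). Control replicate 1 lay within the DN-bmal1a range. The summed erythrocyte markers, aqp1a.1 included, were higher in all 3 DN-bmal1a libraries (7867-9907 CPM, against 6135-7746 CPM in controls). Their part in the peroxiredoxin levels was not tested. The endoplasmic reticulum member prdx4 had 91.6, 104 and 132 CPM in DN-bmal1a and 64.0, 96.8 and 94.5 CPM in controls (log2FC 0.36, SE 0.26). prdx1, also cytosolic, had 448, 465 and 459 CPM in DN-bmal1a and 592, 387 and 290 CPM in controls (log2FC 0.17, SE 0.24). Its DN-bmal1a libraries agreed closely and lay inside the wide control range, and without control replicate 3 its log2FC was -0.07, which left 5 of 6 peroxiredoxins above 0.

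**Figure D3:**
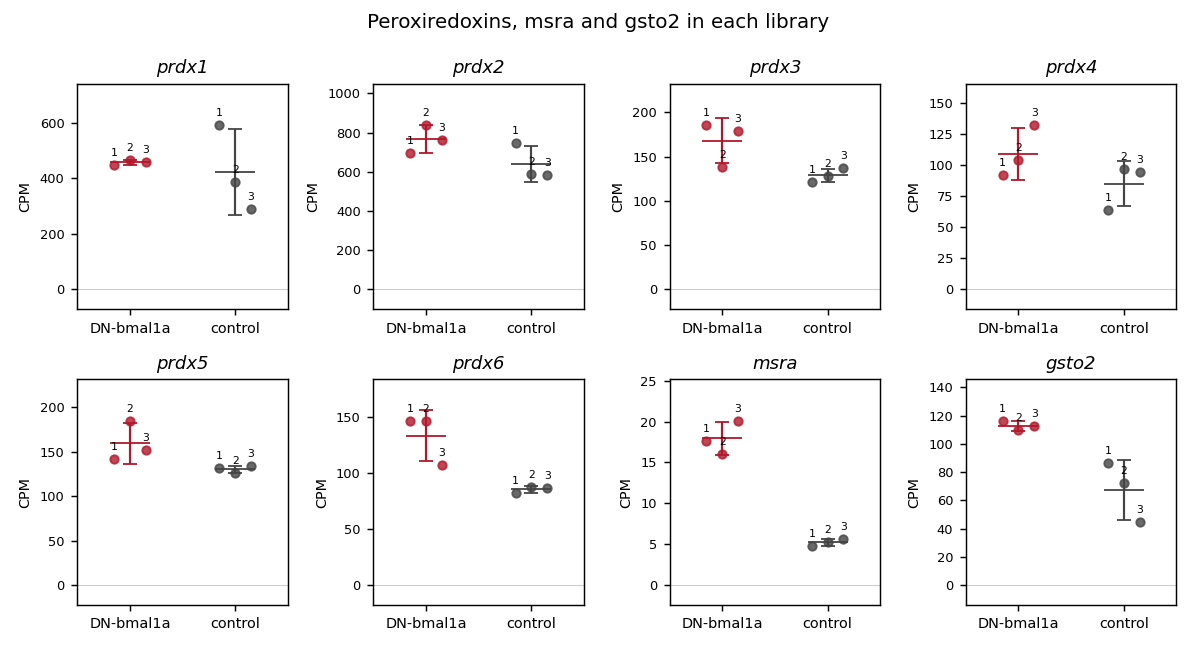
Levels of the 6 peroxiredoxins, msra and gsto2 in each library (CPM, y axis from 0), DN-bmal1a to the left of control; numbers are replicates, horizontal lines are means and bars are SD (n = 3 each). The groups of prdx3, prdx5, prdx6, msra and gsto2 do not overlap, with DN-bmal1a above control, and those of prdx1, prdx2 and prdx4 do.

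For a grouping by compartment, 6 genes were listed as mitochondrial (prdx3, prdx5, sod2, txn2, glrx2 and glrx5). All 6 had a log2FC above 0, where 41.9% of all genes did. At a mean of at least 50 CPM, as prdx3, prdx5 and glrx5 have, 48.5% of all genes did. With quantile normalization 52.1% of all genes and again all 6 were above 0. The list was drawn up with earlier results of these data known and is not complete. The count of 6 is therefore not read as a result about mitochondrial genes. The kappa-class glutathione S-transferase gstk1, which was left out of it, had a log2FC of -0.52. The log2FC of the 6 listed genes ran from 0.13 to 0.37 with a median of 0.23. The count above 0 was 5 of 6 without DN-bmal1a replicate 1 or replicate 3, when glrx2 was below 0. The 6 genes of the endoplasmic reticulum were split, 3 above and 3 below (median 0.04), and of 14 cytosolic genes 8 were above and 6 below (median 0.04). The mitochondrial group shares prdx3 and prdx5 with the peroxiredoxins, and none of its genes passed the test.

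Among the glutathione peroxidases, which reduce peroxides with glutathione, 3 of 7 had a log2FC above 0 and 4 below (median -0.03). gpx4b, a paralogue of the enzyme that reduces lipid peroxides in membranes, had 464, 385 and 360 CPM in DN-bmal1a and 430, 380 and 422 CPM in controls. The groups lay on top of each other, with a log2FC of -0.03 (SE 0.17, 95% interval -0.40 to 0.34) that was 0.03 with the libraries rescaled to the same sum. Its paralogue gpx4a had 89.1, 58.0 and 68.9 CPM in DN-bmal1a and 85.3, 72.9 and 68.9 CPM in controls (log2FC -0.09, SE 0.26). The general cytosolic peroxidase gpx1a had 134, 206 and 166 CPM in DN-bmal1a and 176, 134 and 136 CPM in controls (log2FC 0.17, SE 0.22). The secreted gpx3 was close to unread, with 7, 0 and 0 reads in DN-bmal1a and 21, 16 and 19 reads in controls. All 3 DN-bmal1a libraries of gpx3 were lower, and their mean was 12.3% of the control mean. Every gene of the table has reads in at least 3 libraries, which gpx3 met only with the reads of the controls. Its lack of overlap is therefore not read as a result. The log2FC of -0.45 (SE 0.46) depended on the setting at so low a level: it was 0.02 with quantile normalization, -1.96 with 0.1 CPM added and -2.94 by edgeR. gpx1b, gpx7 and gpx8 lay under 10 CPM in every library.

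Thioredoxin reduces disulphides in proteins, peroxiredoxins included, and is itself reduced by thioredoxin reductase. txn had 63.4, 82.7 and 65.3 CPM in DN-bmal1a and 68.6, 57.8 and 39.9 CPM in controls (log2FC 0.37, SE 0.29), and the mitochondrial txn2 had 31.2, 40.3 and 38.3 CPM in DN-bmal1a and 38.5, 30.9 and 28.3 CPM in controls (log2FC 0.17, SE 0.34). For txnrd1, annotated in RefSeq as txnrd3, the DN-bmal1a libraries had 223, 319 and 232 CPM and the controls 292, 251 and 287 CPM (log2FC -0.12, SE 0.19, 95% interval -0.55 to 0.31). The thioredoxin-like txnl1, a proteasome-associated thioredoxin in human cells, had 314, 324 and 276 CPM in DN-bmal1a and 301, 345 and 368 CPM in controls (log2FC -0.15, SE 0.17). All 4 groups overlapped.

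txnipa, related to the mammalian inhibitor of thioredoxin and of glucose uptake, had 47.3, 156 and 97.4 CPM in DN-bmal1a and 207, 99.7 and 118 CPM in controls (log2FC -0.58, SE 0.43, adjusted p = 0.644). DN-bmal1a replicate 1 was the lowest and control replicate 1 the highest, and the groups overlapped.

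The 7 thioredoxin-domain proteins had 3 genes above 0 and 4 below (median -0.05). The most read were txndc12, an endoplasmic reticulum thioredoxin (160, 163 and 249 CPM in DN-bmal1a and 178, 173 and 245 CPM in controls, log2FC -0.07, SE 0.24), and txndc9, which in yeast and human is a phosducin-like partner of the TRiC chaperonin (110, 90.5 and 99.7 CPM in DN-bmal1a and 95.5, 89.1 and 102 CPM in controls, log2FC 0.06, SE 0.21). In txndc12 the replicates numbered 3 were the highest of both genotypes. txnl4a, which despite its symbol is a spliceosomal protein of the U5 particle in human and yeast, had 21.6, 33.0 and 31.2 CPM in DN-bmal1a and 15.9, 20.0 and 19.7 CPM in controls. All DN-bmal1a libraries of txnl4a lay above all controls (log2FC 0.58, SE 0.42, adjusted p = 0.634).

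Glutaredoxins, which use glutathione to reduce disulphides or to carry iron-sulphur clusters, had 2 genes above 0 and 2 below (median -0.02). glrx5, the mitochondrial iron-sulphur cluster carrier that red cells need for haem synthesis, had 133, 138 and 147 CPM in DN-bmal1a and 175, 105 and 97.2 CPM in controls (log2FC 0.20, SE 0.25). glrx had 64.9, 79.2 and 50.5 CPM in DN-bmal1a and 82.9, 68.7 and 64.7 CPM in controls (log2FC -0.17, SE 0.27). The DN-bmal1a libraries of glrx5 lay within the control range, as those of prdx1 did, with control replicate 1 the highest in both genes.

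Glutathione is made from glutamate, cysteine and glycine by glutamate-cysteine ligase and glutathione synthetase, and is regenerated by glutathione reductase. gclc, the catalytic subunit of the ligase and the rate-limiting step, had 196, 188 and 246 CPM in DN-bmal1a and 229, 178 and 219 CPM in controls. The means were 210 ± 31.5 CPM in DN-bmal1a and 209 ± 27.3 CPM in controls (SD, n = 3 each), with a log2FC of 0.01 (SE 0.19, 95% interval -0.42 to 0.45). Its modifier subunit gclm had 116, 162 and 158 CPM in DN-bmal1a and 123, 125 and 106 CPM in controls (log2FC 0.28, SE 0.21, 95% interval -0.20 to 0.76). DN-bmal1a replicates 2 and 3 were above the controls and replicate 1 among them.

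Glutathione reductase, gsr, took the most CPM of the 66 genes and had 917, 957 and 832 CPM in DN-bmal1a and 1118, 811 and 708 CPM in controls. The DN-bmal1a libraries lay inside the control range (log2FC 0.06, SE 0.19, 95% interval -0.36 to 0.49). In contrast to these well-read steps, glutathione synthetase (gss) had 17, 0 and 296 reads in DN-bmal1a and 231, 181 and 141 reads in controls. DN-bmal1a replicate 3 was among the controls in CPM (5.26 CPM, against 5.58, 4.85 and 2.80 CPM) and the other two DN-bmal1a libraries were close to 0, with a log2FC of -1.36 (SE 0.83, adjusted p = 0.581). It was -0.83 without DN-bmal1a replicate 2, -2.16 without DN-bmal1a replicate 3, -2.76 with 0.1 CPM added and -0.30 with 10 CPM added. The gene lay under 6 CPM in every library.

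Glutathione S-transferases, which join glutathione to electrophiles, were the largest role group, with 5 genes above 0 and 9 below (median -0.16). gsto2, an omega-class member that in mammals reduces dehydroascorbate, stood at the upper end of the well-read genes: 117, 110 and 112 CPM in DN-bmal1a libraries and 86.3, 72.2 and 44.5 CPM in controls. All DN-bmal1a libraries lay above all controls and agreed closely, while the controls spread widely with replicate 3 the lowest. The DN-bmal1a mean was 167% of the control mean (113 ± 3.43 CPM against 67.6 ± 21.3 CPM, SD, n = 3 each), with a log2FC of 0.78 (SE 0.28, 95% interval 0.16 to 1.41, limma adjusted p = 0.361). It was 0.51 without control replicate 3, the lowest value with any 1 library left out.

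The pi-class gstp1, a classical Nrf2 target, had 313, 178 and 209 CPM in DN-bmal1a and 205, 225 and 407 CPM in controls (log2FC -0.23, SE 0.30). The theta-class gstt1b had 272, 115 and 111 CPM in DN-bmal1a and 148, 141 and 140 CPM in controls (log2FC 0.08, SE 0.32). In gstp1 control replicate 3 was the highest, and in gstt1b a single DN-bmal1a library, replicate 1, lay above the controls and the other two below. RefSeq places gstp1 (as gstp1.2) next to gstp1.1, gstm.1 and gstm.3 beside gstm.2, gsta.1 beside gsta.2 and mgst1.1 beside mgst1.2, and how reads were shared between such copies is uncertain.

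Superoxide dismutases and catalase had 1 gene above 0 and 2 below (median -0.08). The mitochondrial sod2 had 36.4, 23.1 and 39.5 CPM in DN-bmal1a and 23.6, 25.6 and 30.8 CPM in controls (log2FC 0.27, SE 0.38). Catalase (cat), the peroxisomal enzyme, had 45.6, 46.9 and 41.4 CPM in DN-bmal1a and 68.7, 33.1 and 46.2 CPM in controls (log2FC -0.08, SE 0.34). The DN-bmal1a libraries of cat lay within the control range, and those of sod2 reached past it on both sides.

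Sestrins restrain the growth regulator mTORC1 under stress. sesn1 had 343, 234 and 240 CPM in DN-bmal1a and 300, 274 and 493 CPM in controls (log2FC -0.36, SE 0.25). sesn3 had 217, 168 and 290 CPM in DN-bmal1a and 187, 165 and 166 CPM in controls (log2FC 0.35, SE 0.22), and sesn2 had 45.5, 28.1 and 23.2 CPM in DN-bmal1a and 11.5, 28.2 and 18.6 CPM in controls (log2FC 0.73, SE 0.48). All 3 sestrins overlapped between the genotypes, and their log2FC did not share a sign.

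Methionine sulfoxide reductases repair oxidised methionine. msra, which acts on the S form, had 17.6, 16.0 and 20.1 CPM in DN-bmal1a libraries, against 4.83, 5.22 and 5.69 CPM in controls, from 762, 437 and 1132 reads in DN-bmal1a and 200, 195 and 286 reads in controls. The groups were far apart for their spread, and the DN-bmal1a mean was 342% of the control mean (17.9 ± 2.06 CPM against 5.25 ± 0.429 CPM, SD, n = 3 each). On the log2(CPM + 1) scale the log2FC was 1.60 (SE 0.58, 95% interval 0.29 to 2.90, limma adjusted p = 0.365), and DESeq2 gave 1.80 with an adjusted p of 0.0333. With any 1 library left out the log2FC of msra was 1.51 to 1.67. RefSeq lists this gene as msraa and a second copy, msrab, on another chromosome.

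The members that act on the R form were read less evenly. msrb1a, a selenoprotein in vertebrates, had 183, 649 and 2 reads in DN-bmal1a and 84, 292 and 480 reads in controls. Replicate 2 of DN-bmal1a was the highest library and replicate 3 the lowest, and the sign of its log2FC depended on the fit (-0.36 with an SE of 1.14 in limma, 0.53 in edgeR).

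The last genes are selenbp1 and mt2. selenbp1, a selenium-binding protein that oxidises methanethiol in human, had 58.8, 38.7 and 62.3 CPM in DN-bmal1a, against 77.4, 70.8 and 81.6 CPM in controls. All DN-bmal1a libraries lay below all controls, with replicate 2 the lowest (log2FC -0.54, SE 0.28, adjusted p = 0.503). The metallothionein mt2, which binds zinc and copper, had 6.69, 19.4 and 7.09 CPM in DN-bmal1a and 17.5, 7.33 and 2.84 CPM in controls (log2FC 0.37, SE 0.79). One library of each genotype stood above the others for mt2, and the groups overlapped.

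**Figure D4:**
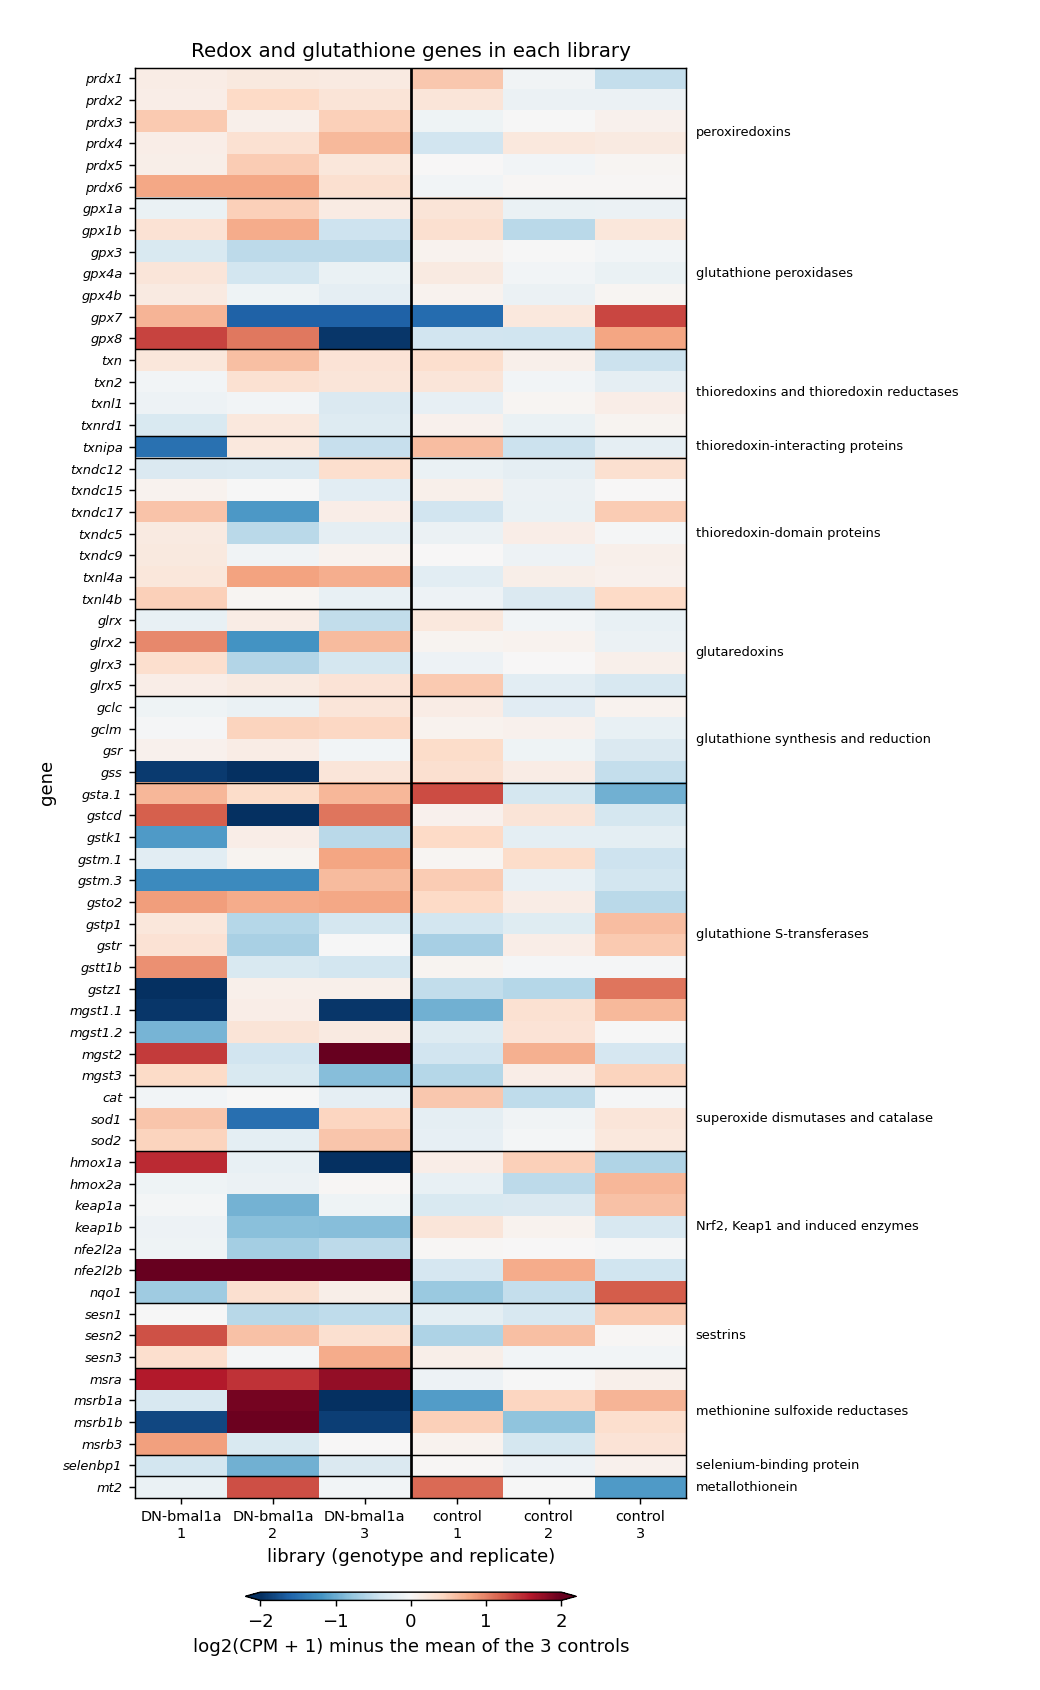
Each of the 66 genes (rows, in role groups) in each library (columns, the 3 DN-bmal1a libraries to the left of the 3 controls), as log2(CPM + 1) minus the mean of the 3 controls, with colours saturating at 2 on either side. In DN-bmal1a libraries the nfe2l2b row is dark red (653, 179 and 328 reads) and the msra row is red. The peroxiredoxin rows are mostly pale, as their differences are small on this scale. Dark blue cells such as those of gss in DN-bmal1a replicate 2 (0 reads) and hmox1a in DN-bmal1a replicate 3 (2 reads) mark few or no reads in that library.

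How tightly a gene could be measured followed its level. Among the 32 genes with a mean of at least 50 CPM, 16 had a log2FC above 0 and 16 below, with a median size of 0.21 and a median SE of 0.25. All genes at that level had a median size of 0.28 and a median SE of 0.26. The 15 genes under 10 CPM had a median size of 0.58 and a median SE of 0.83. The 95% interval lay within a 2-fold change in either direction for 29 of the 66 genes, 25 of them with a mean of at least 50 CPM; for the others the interval reached past a 2-fold change. Of the 10 genes without a read in at least 1 library, 9 lacked one in a DN-bmal1a library and 2 in a control, and their means reached at most 7.25 CPM. Over all genes, 722, 1760 and 865 had no read in DN-bmal1a replicates 1, 2 and 3, against 696, 34 and 422 in controls. The 9 and 2 are therefore not read as a result about the 66.

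**Figure D5:**
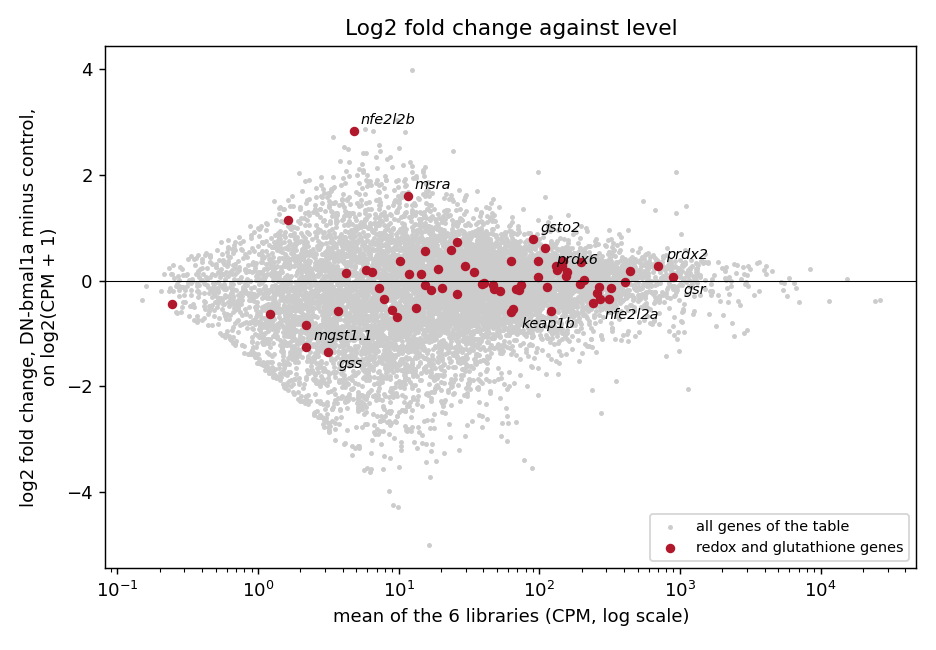
Log2 fold change (DN-bmal1a minus control on log2(CPM + 1), y axis) against the mean of the 6 libraries (CPM, log scale, x axis) for all 10232 genes in grey and the 66 redox and glutathione genes in red. The redox and glutathione genes with a mean of at least 50 CPM lie between -0.60 and 0.78, and values farther out, such as nfe2l2b at 2.83 and gss at -1.36, belong to genes of low level.

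A further 84 genes of the same pathways, in 7 lists, lay outside the symbol rule. None passed the limma test. At an unadjusted p under 0.05, 3 were higher in DN-bmal1a (3.57%, against 3.10% of all genes) and 5 lower (5.95%, against 8.12% of all genes), shares close to or below those over all genes. Those 8 are named below as values. The 14 NADPH-supplying enzymes had 8 genes above 0 and 6 below (median log2FC 0.02), and the 16 genes of glutathione turnover and cystine uptake 8 above and 8 below (median -0.004). me3, a mitochondrial malic enzyme that makes NADPH and a gene on the list of changed genes the study drew from these samples, had 22.4, 14.6 and 16.8 CPM in DN-bmal1a, against 55.1, 71.1 and 82.1 CPM in controls. Its groups were well apart (log2FC -1.90, SE 0.35, limma adjusted p = 0.178). slc25a39, the carrier that brings glutathione into mitochondria and is needed for haem synthesis in red cells, had 58.1, 35.0 and 36.2 CPM in DN-bmal1a, against 20.3, 22.2 and 15.4 CPM in controls (log2FC 1.1, SE 0.40, limma adjusted p = 0.364). All DN-bmal1a libraries of slc25a39 lay above all controls, as did the summed erythrocyte markers, whose part in it was not tested.

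A list of 15 genes around Nrf2 and Bach held bach1a and bach1b, small Maf partners, parts of the Cul3 ligase, Nrf2 relatives such as nfe2l1a, sqstm1, park7 and nrf1 (nuclear respiratory factor, a different protein from Nrf2). Of these 5 were above 0 and 10 below (median -0.21). sqstm1 (p62), which binds Keap1 and so releases Nrf2, had 423, 302 and 315 CPM in DN-bmal1a, against 440, 504 and 579 CPM in controls (log2FC -0.56, SE 0.19, limma adjusted p = 0.354). All its DN-bmal1a libraries lay below all controls, with replicate 1 close to them. A list of 15 further genes, most of them Nrf2 targets in other vertebrates, had 7 above 0 and 8 below (median -0.02). It also held ftr82, a finTRIM gene that is not known as such a target, and taldo1, which is counted among the NADPH-supplying enzymes too. In cbr1 and fth1a, a ferritin chain, all DN-bmal1a libraries lay above all controls, and no gene of this list had all below. Over all genes, 7.00% had all above and 10.7% all below. The carbonyl reductase cbr1 had 13.1, 18.7 and 20.9 CPM in DN-bmal1a and 3.57, 9.26 and 3.92 CPM in controls (log2FC 1.57, SE 0.64, adjusted p = 0.411). The epoxide hydrolase ephx1 had 0, 0 and 8.05 CPM in DN-bmal1a and 8.55, 6.37 and 10.9 CPM in controls (log2FC -2.18, SE 0.95, adjusted p = 0.438). cbr1 and ephx1, both Nrf2 targets, therefore lay on opposite sides, and the ephx1 groups overlapped.

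The 7 listed genes of NADPH oxidases and xanthine dehydrogenase, which make superoxide, had 2 above 0 and 5 below (median -0.21). noxo1a, an organiser subunit, had 6, 0 and 36 reads in DN-bmal1a and 141, 49 and 115 reads in controls (log2FC -1.39, SE 0.59, adjusted p = 0.427). Selenocysteine is placed in glutathione peroxidases, thioredoxin reductases and msrb1 proteins by a dedicated tRNA. sepsecs, the synthase that makes selenocysteine on that tRNA, had 25.2, 34.2 and 30.0 CPM in DN-bmal1a, against 63.2, 52.0 and 79.1 CPM in controls (log2FC -1.08, SE 0.31, limma adjusted p = 0.283). The 8 genes of the selenocysteine-containing families among the 66 had 2 above 0 and 6 below, with a median of -0.10 that was 0.004 with quantile normalization. A further 15 selenoproteins under older symbols had 4 above 0 and 11 below (median -0.19), and among them selt1a, a thioredoxin-like selenoprotein of the endoplasmic reticulum, had 75.4, 95 and 84.4 CPM in DN-bmal1a and 32.4, 65.3 and 62.9 CPM in controls (log2FC 0.72, SE 0.32, adjusted p = 0.444). The sepsecs and selt1a groups did not overlap, with sepsecs lower and selt1a higher in DN-bmal1a libraries. Under the older symbols, sepp1b and dio1 also had no overlap and were lower in DN-bmal1a, both at a few CPM or less.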

How the data were processed

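The 6 libraries were made from total RNA with a SMARTer low-input kit and Nextera XT. The authors aligned reads with STAR 2.7.0f, counted them per gene with HTSeq 0.9.1 and normalised them with edgeR (3.38.4 in the submitters' processing notes, which also name bcl2fastq 2.20.0). Those notes give the build as GRCz11, whereas the study's methods name GRCz10, so no coordinates are given. The deposited values are a signal, CPM of an effective library size. All 10232 genes have reads in at least 3 libraries. Low-read genes such as gpx3, ephx1 and nfe2l2b met this only with the reads of the genotype where they were higher. Here 100% of the values above 0 were whole multiples (tolerance 0.01) of 1 read per library, which gave back the reads.

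Values were tested as log2(CPM + 1) with limma 3.58.1 (trended empirical Bayes, R 4.3.3) on all genes; edgeR 4.0.16 and DESeq2 1.42.0 on the recovered reads were alternatives, and the code was tested on simulated data. With 3 against 3 libraries an exact permutation p cannot be below 0.1. No pair of libraries was identical. Of the 66 symbols 61 matched RefSeq (GRCz12tu) directly and 5 by synonym. No sequences are shown.

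Named were genes with an unadjusted p under 0.05, those without overlap and a log2FC of at least 0.5, the 2 most read of each role group, and their paralogues; genes of the pathway lists were named at an unadjusted p under 0.05. gpx3, gclm, txn, txn2, glrx2, hmox1a, nqo1, gss, fth1a and genes listed without values were chosen after their values were seen. The genes and lists were chosen with earlier results of these data known, and me3 is on the study's own list of changed genes, so its direction is not independent evidence. Intervals cover the spread between these libraries only.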

Additional observations from a re-analysis of the deposited data

How the results depend on the processing

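With 3 libraries a genotype, genes at a few CPM could not be measured to within a 2-fold change. The number of genes called was 1 in limma, 7 without the trend, and 0 to 1 with any 1 library left out. The edgeR quasi-likelihood test called 0 (at an unadjusted p under 0.05, 535 lower and 269 higher), and DESeq2 called 187 (168 lower, 19 higher). Of the 66 genes 0 were called, or 1 (msra) by DESeq2. The study's own edgeR analysis of these samples, with the same thresholds, listed more changed genes than limma or this edgeR test called, and fewer than DESeq2. None of the 66 was on that list. The median log2FC of the 66 was -0.05, or 0.027 with 10 CPM added, 0.044 with quantile normalization, 0.069 by edgeR and 0.089 by DESeq2, and -0.074 to 0.037 with 1 library left out. The sign changed for msrb1a (0.068 with 10 CPM added, 0.53 by edgeR, 0.57 by DESeq2), hmox1a (0.33 by edgeR, 0.34 by DESeq2), gpx4b (0.030, same sum), gpx3 (0.022, quantile) and nqo1 (0.043, quantile); the cause was not tested. With 1 library left out, ranges that crossed 0 were -0.33 to 0.18 for cat, -0.14 to 0.044 for gpx4b, -0.25 to 0.056 for gpx4a, -0.11 to 0.084 for gclc, -0.080 to 0.25 for gsr, -0.46 to 0.076 for gstp1, -0.20 to 0.94 for mt2, -0.067 to 0.45 for prdx1, -0.28 to 0.087 for txndc12, -0.46 to 0.52 for nqo1, -0.34 to 0.31 for gstt1b, -0.0052 to 0.13 for txndc9, -0.28 to 0.79 for glrx2, -1.49 to 0.80 for msrb1a and -1.59 to 0.68 for hmox1a. Ranges that kept their sign but moved by over 1.5 times from the value with all libraries were -0.51 to -0.055 for keap1a (nearest 0 without control replicate 3), -0.53 to -0.097 for sesn1 (control replicate 3), -0.98 to -0.13 for txnipa (DN-bmal1a replicate 1), -0.67 to -0.33 for selenbp1 (DN-bmal1a replicate 2), 0.42 to 1.03 for sesn2 (control replicate 1), 0.15 to 0.54 for sesn3 (DN-bmal1a replicate 3), 0.016 to 0.32 for gpx1a (DN-bmal1a replicate 2), 0.17 to 0.48 for prdx4 (control replicate 1), 0.17 to 0.36 for prdx5 (DN-bmal1a replicate 2), 0.51 to 0.98 for gsto2 (control replicate 3), 0.15 to 0.53 for txn, 0.075 to 0.29 for txn2 and 0.037 to 0.46 for glrx5 (all 3 control replicate 3), 0.13 to 0.50 for sod2 and -0.32 to -0.00038 for glrx (both DN-bmal1a replicate 3), -0.23 to -0.077 for txnl1 (DN-bmal1a replicate 3), -0.28 to -0.023 for txnrd1 (DN-bmal1a replicate 1), 0.20 to 0.43 for gclm and -2.16 to -0.83 for gss (both DN-bmal1a replicate 2). At an unadjusted p under 0.05, 0 to 3 of the 66 were then lower and 3 to 7 higher. The shares over all genes in these fits are not given here, so the counts are not read as a result about the 66. Genes without overlap numbered 3 lower and 7 higher, also with the same sum, and 2 and 8 with quantile normalization (added after seeing the data). As deposited, 10.7% of all genes were lower and 7.00% higher without overlap. The shares over all genes under the other scalings are not given here, so the move to 8 is not read as a result about the 66. Over all genes, deviations from the genotype mean were nearly uncorrelated between libraries of equal replicate number (correlations of -0.0735, -0.0114 and 0.00247). That cannot show that equal numbers share no batch. In actc1b, ckma and txndc12, for example, replicate 3 was the highest library of both genotypes. With a replicate block 1 gene and 0 of the 66 were called, with a median of -0.05. At an unadjusted p under 0.05, 3 of the 66 were then higher, again without the share over all genes.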

Other observations

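Single libraries stood out within their genotype for part of the redox and glutathione genes. Of the 51 with a mean of at least 10 CPM, DN-bmal1a replicate 2 was at least 1.5-fold below both other DN-bmal1a libraries for 7 (glrx2, gstr, keap1a, selenbp1, sod1, sod2 and txndc17), while 18.6% of all 6611 genes at that level were this low in it, and at least 1.5-fold above them for 3 (gstk1, mt2 and txnipa, against 10.3% of all genes). DN-bmal1a replicate 1 was above for 5 (glrx3, gstt1b, keap1b, mgst3 and sesn2, against 11.6% of all genes) and below for 4 (gstk1, mgst1.2, nqo1 and txnipa, against 10.3%). Control replicate 3 was at least 1.5-fold above both other controls for 6 (gstp1, hmox2a, keap1a, nqo1, sesn1 and txndc17, against 8.09% of all genes) and below them for 3 (gsta.1, gsto2 and mt2, against 8.82%). Control replicate 1 was above the others for 6 (glrx5, gsta.1, gstk1, mt2, prdx1 and txnipa, against 8.35% of all genes) and below for 3 (gstr, mgst3 and sesn2, against 13.3%). DN-bmal1a replicate 3 was above for 2 (against 7.68% of all genes) and below for 0 (against 8.82%). Control replicate 2 was above for 1 (against 3.93% of all genes) and below for 0 (against 3.45%).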
